A study of Mus musculus with 5 samples.

Results

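The 10 genes described here are Brachyury (T), the Wnt target genes Axin2, Sp5, Nkd1 and Znrf3, the scaffold gene Axin1, and the 4 TCF/LEF factor genes Lef1, Tcf7, Tcf7l1 and Tcf7l2. They were taken by name from the 55147 gene symbols that the transcripts of the series map to, and 9 of the 10 passed the filter on low values. RNA was sequenced from 3 samples of WT cells, the E14Tg2a mouse embryonic stem (ES) cell line, and from 2 samples of C3G null cells, made in the same line by CRISPR knock-in of an EF1α-puromycin cassette in place of exons 2 to 4 of the C3G gene, Rapgef1. Cells of this kind were grown on gelatin in GMEM with fetal calf serum and LIF, and null lines were picked as single puromycin-resistant colonies. The study calls the samples of each group independent. Which clone or clones the 2 null samples came from is not given in the labels, nor whether samples of a group are separate cultures. P-values therefore measure only the spread between these samples. C3G is an exchange factor that activates Rap GTPases.

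Secreted Wnt proteins bind Frizzled receptors and their Lrp co-receptors at the cell surface, which stops a complex built on Axin from marking β-catenin for destruction. β-catenin then enters the nucleus, binds TCF/LEF factors on DNA and turns on target genes, among them Axin2, Sp5, Nkd1 and Znrf3, whose products dampen the pathway again. In ES cells Tcf7l1 acts mainly as a repressor, Wnt signals favour self-renewal, and during gastrulation they turn on Brachyury, the T-box factor of the primitive streak and early mesoderm.

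Values are TPM, a unit of transcript abundance per length that sums to the same total in every sample. It keeps no read number, so the depth of a sample is unknown here. Protein-coding genes held 28.8% to 31.8% of the TPM in WT samples and 18.6% and 26.0% in C3G null 1 and 2, the rest lying mostly on small RNAs. As deposited, the median log2 fold change over all tested genes was -0.55. The main values here are scaled TPM, in which a size factor was taken out of each sample (its median ratio to a geometric-mean reference sample, the median-of-ratios method), and the median fold change was then 0.01. Fold changes are log2 of scaled TPM + 1, C3G null against WT, which understates changes of low genes. They were tested with limma over 12518 genes with at least 1 TPM in at least 2 samples, and a gene was called at a Benjamini-Hochberg adjusted p under 0.05. For TPM as deposited, limma used only the variance common to all genes of a given level, not a gene's own spread. Rapgef1, the targeted gene, had 11.6, 10.3 and 9.64 TPM in WT against 3.92 and 5.55 TPM in C3G null samples (log2 fold change -0.41, SE 0.06, adjusted p = 0.00444 from limma). When corrected for length and GC content, this log2 value was -0.22 (adjusted p = 0.0365 from limma). The TPM of the gene include transcripts from exons outside the replaced stretch. Over all tested genes, the log2 fold change after scaling had a Spearman correlation of -0.31 with transcript length and -0.11 with GC content. Genes with long transcripts thus tended to be lower in C3G null cells. The ES cell genes Pou5f1, Sox2, Zfp42, Dppa5a, Tdgf1, Fgf4 and Utf1 were all present in both groups, with a summed level as deposited of 2110 to 2235 TPM in WT and 1714 and 2219 TPM in C3G null samples. After scaling the sum was 1580 to 1988 in WT and 2771 and 2450 in C3G null samples, and most of that difference lay in Dppa5a.

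Of the 9 tested genes, 4 fell in C3G null cells, namely Brachyury, Axin2, Sp5 and Tcf7l2, and 1 rose, Lef1. Among all tested genes 16.6% were called lower and 14.1% higher. The genes were chosen with earlier results of these data known, so these shares are no test of the set. The remaining 4, Axin1, Tcf7, Tcf7l1 and Znrf3, did not pass the test after scaling. Without scaling, 8 of the 9 were called lower, where 56.8% of all genes were, and Lef1 was again called higher, where 1.45% of all genes were. The median log2 fold change of the 9 was -0.13 after scaling, against 0.01 for all genes. None of the 10 genes lies on chromosome 14, the chromosome whose genes were lower as a whole. On chromosomes 2, 3, 11, 17 and 19, which hold the called ones, the median log2 fold changes of all tested genes were -0.00234, 0.0248, 0.0285, -0.0122 and 0.0198. The groups did not overlap in scaled TPM for 6 of the 10 genes, 5 of them lower in C3G null cells (29.3% of all tested genes) and 1 higher (29.5%).

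**Figure D1:**
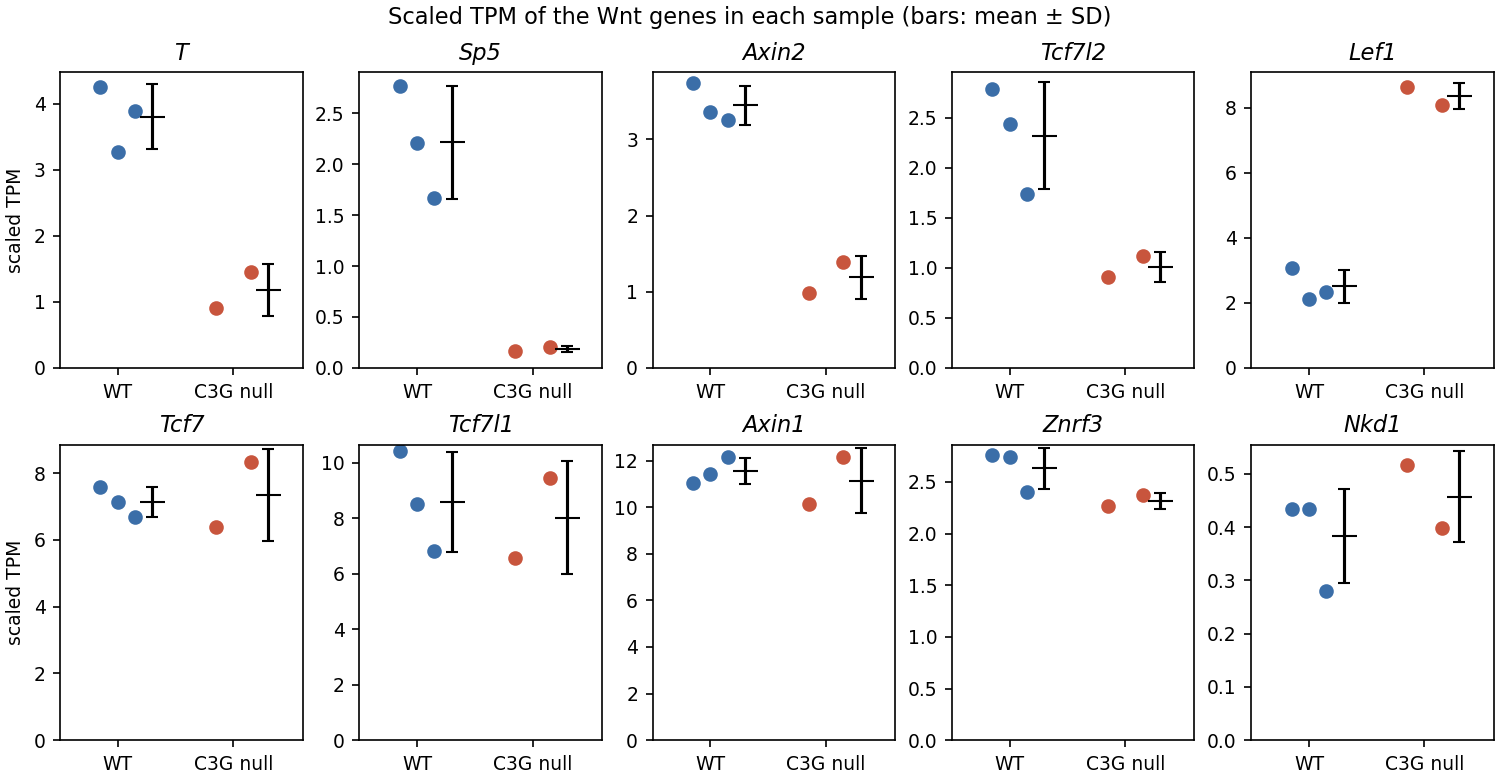
Scaled TPM of the 10 genes, 1 panel a gene, with 1 point per sample (3 WT, 2 C3G null) and the mean ± SD beside the points, each axis starting at 0. Brachyury, Sp5, Axin2 and Tcf7l2 lay lower in both C3G null samples than in all WT samples, Lef1 lay higher, and the groups overlapped for Tcf7, Tcf7l1, Axin1 and Nkd1.

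Brachyury (ENSMUSG00000062327, chr17:8434423-8442496 of GRCm38, forward strand) had 5.67, 3.99 and 4.30 TPM in WT 1, 2 and 3, against 0.56 and 1.32 TPM in C3G null 1 and 2. Both null samples lay below all WT samples. On the scaled level it went from 3.80 ± 0.494 (SD, n = 3) to 1.18 ± 0.390 (SD, n = 2), 3.22-fold lower. The log2 fold change was -1.15 (SE 0.14, 95% interval -1.48 to -0.81, adjusted p = 0.00254 from limma), and 1.33% of all tested genes lay at or below it. The pair of primers that the study designed for Brachyury in quantitative PCR is shown because it tells which transcripts such an assay reads.
first primer: gtggtgtgtaatgtgcaggg
second primer: ataacgccagcccacctact
Matched to the annotated transcripts, the pair spans 150 bases in T-201, from base 1115 to 1264 of 2046, and in T-203, from base 584 to 733 of 761, and the third transcript, T-202, holds no such match. T-201 carries the full coding sequence and had 3.99, 2.87 and 3.13 TPM in WT and 0.44 and 0.73 TPM in C3G null samples, with no overlap. T-203 had 1.18, 0.57 and 0.57 TPM in WT and 0.08 and 0.47 TPM in C3G null samples, and overlapped after scaling. The sum of the transcripts that the primers match was 5.17, 3.44 and 3.70 TPM against 0.52 and 1.2 TPM, so the stretch read by these primers was lower in both null samples, as was the whole gene.

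Axin2 (ENSMUSG00000000142, chr11:108920349-108950783, forward strand), the feedback scaffold of the destruction complex and a common reporter of Wnt activity, had 4.99, 4.09 and 3.59 TPM in WT and 0.61 and 1.26 TPM in C3G null samples. All WT samples lay above both null samples. The scaled level was 3.45 ± 0.256 (SD, n = 3) in WT against 1.19 ± 0.286 (SD, n = 2) in C3G null cells, 2.90-fold lower, with a log2 fold change of -1.03 (SE 0.10, 95% interval -1.28 to -0.78, adjusted p = 0.00133 from limma). Its transcript Axin2-201 held about the same mean part of the gene's TPM in WT, 55.6%, and in C3G null cells, 56.2%. Axin1 (ENSMUSG00000024182, chr17:26138688-26195811, forward strand), the scaffold that is made without a Wnt signal, had 14.8, 13.9 and 13.4 TPM in WT and 6.28 and 11.00 TPM in C3G null samples. After scaling its samples overlapped, with a log2 fold change of -0.05 (95% interval -0.27 to 0.17, adjusted p = 0.702 from limma). The share of Axin2 in the TPM of both Axin genes needs no scaling between samples, and was 25.3%, 22.7% and 21.1% in WT and 8.85% and 10.3% in C3G null samples. The mean share was 13.4 points lower in C3G null cells (23.0% ± 2.11 against 9.57% ± 1.01, SD, exact permutation p = 0.2, two-sided), and 0.2 is the smallest p that 3 against 2 samples allow.

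Sp5 (ENSMUSG00000075304, chr2:70474923-70477729, forward strand), a zinc finger repressor that Wnt signals turn on, had 3.70, 2.69 and 1.84 TPM in WT and 0.10 and 0.19 TPM in C3G null samples. It was the lowest of the 10 genes in both null samples and the eighth or ninth in WT. The scaled level was 2.21 ± 0.552 (SD, n = 3) in WT against 0.186 ± 0.0340 (SD, n = 2) in C3G null cells, 11.9-fold lower, and the log2 fold change of -1.42 (SE 0.15, adjusted p = 0.00153 from limma) is small beside that fold because of the 1 TPM added. Sp5 passed the filter on low values only through the WT samples, which favours a lower value in C3G null cells. Brachyury, Axin2 and Tcf7l2 reached 1 TPM in C3G null 2 but not in C3G null 1, so they too needed WT samples to pass. Znrf3 (ENSMUSG00000041961, chr11:5276324-5444847, reverse strand), an E3 ligase that clears Frizzled from the surface, had 3.68, 3.34 and 2.65 TPM in WT and 1.40 and 2.15 TPM in C3G null samples. Its scaled samples did not overlap, at 2.40 to 2.76 in WT and 2.26 and 2.37 in C3G null samples, but the log2 fold change of -0.13 did not pass (95% interval -0.31 to 0.06, adjusted p = 0.242 from limma). Nkd1 (ENSMUSG00000031661, chr8:88521354-88594884, forward strand), which binds Dishevelled and limits the signal, had 0.58, 0.53 and 0.31 TPM in WT and 0.32 and 0.36 TPM in C3G null samples. It stayed below the filter in both groups and was not tested.

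The promoters of Brachyury, Sp5, Axin2 and Lef1 are shown because these genes were called and are known to respond to TCF/LEF factors. They are the 250 bases before a RefSeq transcript start on the forward strand of GRCm38.p6, with CTTTGA, a core of the TCF/LEF site, or its reverse complement TCAAAG in capitals.
Sp5, chr2:70474673-70474922: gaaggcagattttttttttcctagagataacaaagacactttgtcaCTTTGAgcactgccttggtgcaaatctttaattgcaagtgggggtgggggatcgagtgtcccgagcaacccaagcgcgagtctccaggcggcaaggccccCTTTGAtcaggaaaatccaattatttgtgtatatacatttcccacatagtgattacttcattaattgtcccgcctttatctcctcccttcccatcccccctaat
T, chr17:8434173-8434422: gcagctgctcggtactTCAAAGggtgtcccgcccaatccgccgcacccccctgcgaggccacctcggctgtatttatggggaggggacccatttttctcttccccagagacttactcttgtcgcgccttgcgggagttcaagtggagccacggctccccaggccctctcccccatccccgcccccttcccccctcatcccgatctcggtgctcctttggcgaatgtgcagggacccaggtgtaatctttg
Axin2, chr11:108920099-108920348: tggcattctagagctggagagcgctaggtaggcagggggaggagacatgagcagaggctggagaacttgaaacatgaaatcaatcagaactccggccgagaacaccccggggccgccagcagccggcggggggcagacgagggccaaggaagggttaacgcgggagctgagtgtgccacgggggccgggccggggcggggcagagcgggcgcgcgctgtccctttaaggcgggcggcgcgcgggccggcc
Lef1, chr3:131110047-131110296: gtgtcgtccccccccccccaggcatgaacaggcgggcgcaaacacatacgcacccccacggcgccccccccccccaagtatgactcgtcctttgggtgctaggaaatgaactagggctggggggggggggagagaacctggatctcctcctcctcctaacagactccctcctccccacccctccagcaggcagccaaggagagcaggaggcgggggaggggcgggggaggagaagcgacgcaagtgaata
Sp5 held 2 matches, at 204 and 104 bases before the start, and Brachyury held 1, on the reverse strand at 234 bases before the start. The windows of Axin2 and of this start of Lef1 held none, which says only that these letters are not in these windows. A later start of Lef1, at chr3:131156044-131156293, held 2 matches. RefSeq windows were at hand for 8 of the 10 genes, 13 in all, and 3 of these 13 windows, of 3 genes, held a match. Of 32851 promoter windows of the same length, 13.8% held at least 1 match and 1.37% held 2 or more.

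Lef1 (ENSMUSG00000027985, chr3:131110471-131224356, forward strand), the TCF/LEF factor that acts mainly as an activator with β-catenin, was the gene of the set that rose. It had 4.11, 2.58 and 2.59 TPM in WT and 5.35 and 7.33 TPM in C3G null samples, so both null samples lay above all WT samples even as deposited. The scaled level was 2.51 ± 0.503 (SD, n = 3) in WT against 8.37 ± 0.394 (SD, n = 2) in C3G null cells, 3.33-fold higher. The log2 fold change was 1.42 (SE 0.12, 95% interval 1.13 to 1.72, adjusted p = 0.000801 from limma), and 99.4% of all tested genes lay at or below it. As deposited it was 0.85 (adjusted p = 0.00121 from limma). The protein-coding transcript Lef1-202 had 1.33, 1.06 and 0.85 TPM in WT and 1.63 and 2.17 TPM in C3G null samples. Lef1-204, also protein-coding and differing in exon number, had 0.97, 0.44 and 0.43 TPM against 1.06 and 2.40 TPM. The third, Lef1-206, is annotated as a retained intron and had 1.17, 0.66 and 0.53 TPM against 1.62 and 1.83 TPM. All 3 were higher in both null samples than in all WT samples after scaling, and Lef1-206 held a mean of 24.8% of the gene's TPM in WT and 27.6% in C3G null cells. TPM of single transcripts are estimates that divide shared reads between overlapping forms.

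Tcf7l2 (ENSMUSG00000024985, chr19:55741820-55933654, forward strand), which can activate or repress, had 3.72, 2.97 and 1.92 TPM in WT and 0.56 and 1.01 TPM in C3G null samples. Both null samples were below all WT samples. The scaled level was 2.32 ± 0.533 (SD, n = 3) in WT against 1.01 ± 0.148 (SD, n = 2) in C3G null cells, 2.30-fold lower, with a log2 fold change of -0.71 (SE 0.15, 95% interval -1.07 to -0.36, adjusted p = 0.0155 from limma). Leaving out either null sample ended this call (adjusted p = 0.0830 without C3G null 1 and 0.0524 without C3G null 2, from limma, where the lone null sample is assumed to vary like WT). Its most abundant transcript, Tcf7l2-209, had 1.50, 1.08 and 0.80 TPM in WT and 0.21 and 0.32 TPM in C3G null samples.

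Tcf7 (ENSMUSG00000000782, chr11:52252371-52283014, reverse strand), mainly an activator, had 10.1, 8.71 and 7.39 TPM in WT and 3.95 and 7.54 TPM in C3G null samples. C3G null 2 lay within the WT range, and after scaling the log2 fold change was 0.03 (95% interval -0.25 to 0.30, adjusted p = 0.871 from limma). Tcf7l1 (ENSMUSG00000055799, chr6:72626378-72789254, reverse strand), the repressor, had 13.9, 10.4 and 7.53 TPM in WT and 4.07 and 8.57 TPM in C3G null samples. It was the member with the widest spread among WT samples after scaling, 8.58 ± 1.80 (SD, n = 3), and its log2 fold change was -0.09 (95% interval -0.57 to 0.39, adjusted p = 0.763 from limma). The intervals of Tcf7 and Tcf7l1 leave room for changes within those bounds in either direction. Without scaling both were called lower, with log2 fold changes of -0.57 and -0.70, close to the median of all genes.

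**Figure D2:**
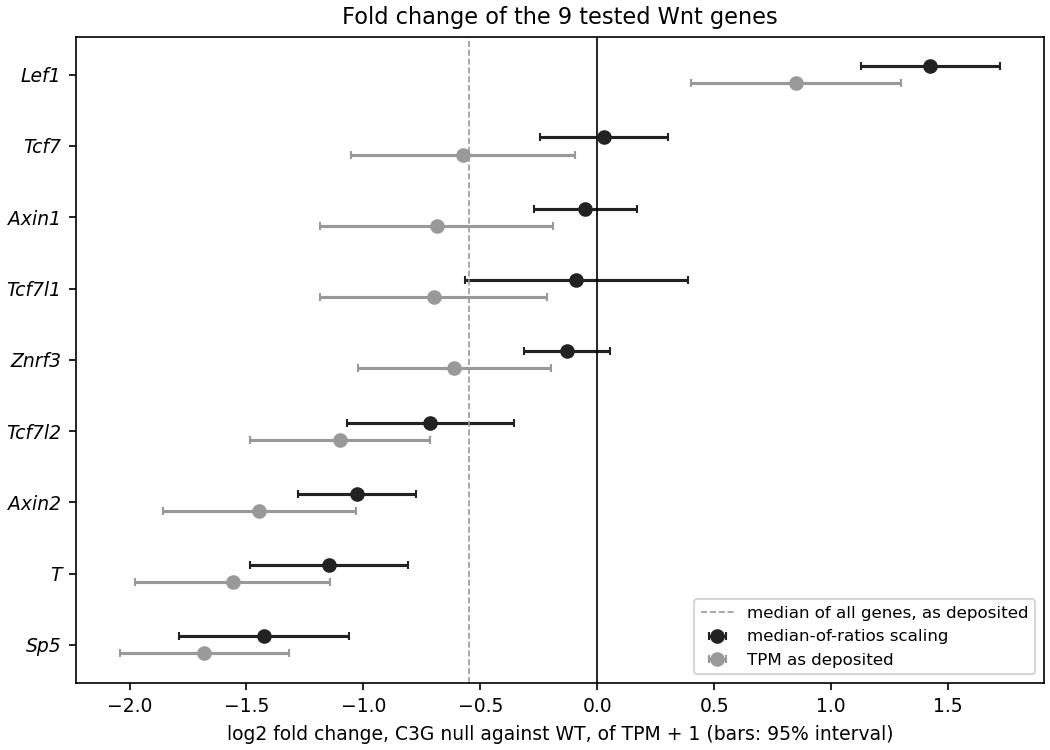
Log2 fold changes of the 9 tested genes in C3G null against WT cells with 95% intervals from limma, after scaling (black) and as deposited (grey), with a dashed line at the median of all genes as deposited, -0.55. Lef1 lay above 0 and Sp5, Brachyury, Axin2 and Tcf7l2 lay below 0 on both scales, while Tcf7, Axin1, Tcf7l1 and Znrf3 lay near the median of all genes on both.

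The make-up of the TCF/LEF transcripts differed between the groups, in shares that do not depend on the scaling between samples. Lef1 held 12.9%, 10.5% and 13.3% of the TPM of the 4 genes in WT 1 to 3 and 38.4% and 30.0% in C3G null 1 and 2. Its mean share was 12.2% ± 1.54 (SD, n = 3) in WT against 34.2% ± 5.96 (SD, n = 2) in C3G null cells, 22.0 points higher, and the groups did not overlap. Tcf7l2 held 11.7%, 12.1% and 9.88% in WT and 4.02% and 4.13% in C3G null samples, with no overlap. The share of Tcf7l1 was 43.7%, 42.1% and 38.8% in WT and 29.2% and 35.1% in C3G null samples. That of Tcf7 was 31.8%, 35.4% and 38.0% against 28.4% and 30.8%. Each of the 4 shares gave the smallest exact permutation p of 0.2 (two-sided), and since they add up to the whole, the larger share of Lef1 lowers the others.

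**Figure D3:**
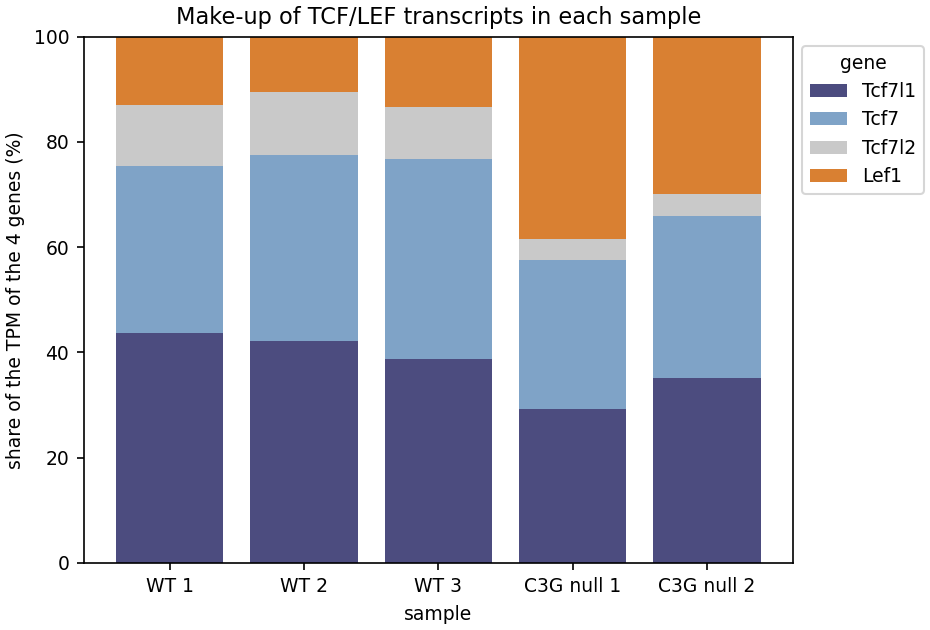
Share in percent of each TCF/LEF gene in the summed TPM of Lef1, Tcf7, Tcf7l1 and Tcf7l2, stacked for each of the 5 samples. Lef1 took 10.5% to 13.3% in WT samples against 30.0% and 38.4% in C3G null samples, and Tcf7l2 took 9.88% to 12.1% and then 4.02% and 4.13%.

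Ordered by mean TPM as deposited, the WT levels were Axin1 at 14.04, Tcf7l1 at 10.6 and Tcf7 at 8.75, whose ranges overlapped from neighbour to neighbour. After a gap came Brachyury at 4.65, Axin2 at 4.22, Znrf3 at 3.22, Lef1 at 3.09, Tcf7l2 at 2.87 and Sp5 at 2.74, again with overlapping neighbours, and Nkd1 at 0.473 was apart from them. In C3G null cells Lef1, at 6.34, joined Axin1 at 8.64, Tcf7l1 at 6.32 and Tcf7 at 5.75 in an upper group with overlapping neighbours. Lef1 was sixth, ninth and seventh of the 10 genes in WT 1 to 3, and the second and the fourth in C3G null 1 and 2. Below a gap came Znrf3 at 1.78, then Brachyury at 0.940, Axin2 at 0.935 and Tcf7l2 at 0.785 with overlapping ranges, and Nkd1 at 0.340 and Sp5 at 0.145 stood apart from each other.

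The rest of the Wnt pathway was described with 8 lists of 109 genes, of which 60 were tested, 5 were called higher and 28 lower, with a median log2 fold change of -0.28, beside 14.1% and 16.6% of all tested genes and a median of 0.01. In bulk RNA, fewer cells that express a gene and less RNA of it in each cell cannot be told apart. Of the 60 tested, 12 had under 1 TPM in both null samples and so passed the filter only through WT samples. Others, among them Tnfrsf19 and Bcl9l, reached 1 TPM in C3G null 2 but not in C3G null 1, and also needed WT samples. This favours genes that are lower in C3G null cells, so the counts of lower genes are no support on their own. Without scaling 48 were called lower, where 56.8% of all tested genes were, and 0 higher by limma (0 at an unadjusted p under 0.05).

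All 5 tested Wnt ligand genes fell and 0 rose by limma (0 at an unadjusted p under 0.05), 4 of the 5 having passed the filter only through WT. Wnt7b had 5.98, 5.16 and 4.96 TPM in WT and 0.48 and 0.55 TPM in C3G null samples (log2 fold change -1.68, SE 0.08, adjusted p = 0.000135 from limma). Wnt4 had 1.95, 2.02 and 2.03 TPM against 0.05 and 0.05 TPM. Wnt3, which is needed for the primitive streak, had 1.44, 1.29 and 1.24 TPM against 0.04 and 0.12 TPM. Every null sample lay far below every WT sample for these 3 genes. Over all 19 ligand genes, 14 of them below the filter, 15 had lower scaled TPM without overlap, where 29.3% of all tested genes had, and 1, Wnt16, had higher, which overlapped as deposited at 0.10 to 0.12 TPM. Most of these levels were under 1 TPM in every sample, so a share of tested genes is not a like comparison. The summed scaled level of the ligands was 13.7 to 13.9 in WT and 3.51 and 3.60 in C3G null samples. Wls, the carrier that brings Wnt proteins to the surface, had 9.73, 8.23 and 8.56 TPM in WT and 0.46 and 0.79 TPM in C3G null samples. Its scaled level was 8.99-fold lower and its log2 fold change of -2.19 (SE 0.08, adjusted p = 7.91e-05 from limma) was the lowest of the 60, and it too passed the filter only through WT. Porcn, the acyltransferase of Wnt proteins, did not pass (log2 fold change -0.01, adjusted p = 0.966 from limma), and Notum, which removes the acyl group, rose by 0.56 (adjusted p = 0.00462 from limma, and 0.811 as deposited).

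Among the 16 receptor genes, 11 were tested, 6 fell and 1 rose, where 16.6% and 14.1% of all tested genes did. Of the 11 tested, 3 had passed the filter only through WT, Fzd2 among them, which favours lower values in C3G null cells. Ptk7, a co-receptor of planar polarity signalling, had 26.7, 25.3 and 22.9 TPM in WT and 5.77 and 8.99 TPM in C3G null samples (log2 fold change -1.02, SE 0.06, adjusted p = 0.000349 from limma). Fzd10 had 5.96, 4.92 and 5.01 TPM against 1.08 and 1.66 TPM (log2 fold change -0.94, adjusted p = 0.00056 from limma), and Fzd2 had 2.10, 2.01 and 1.38 TPM against 0.39 and 0.67 TPM, a call lost without C3G null 1 (adjusted p = 0.0552 from limma). Fzd7 rose by 0.34 after scaling (adjusted p = 0.0279 from limma) but had a log2 fold change of -0.30 as deposited, and its call was lost without WT 2, WT 3 or C3G null 2 (adjusted p = 0.0624 to 0.123 from limma). Of the 8 genes of the R-spondin axis only Lgr4, a receptor, was tested, and it did not pass (log2 fold change 0.19, adjusted p = 0.0802 from limma). Of 4 tested inhibitors, the secreted Sfrp1 and Sfrp2 rose, by 0.65 and 0.54, and the membrane proteins Kremen1 and Tpbg fell, by 0.60 and 0.59 on the log2 scale. Sfrp1 and Sfrp2 were not called as deposited (adjusted p = 0.449 and 0.908 from limma).

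Inside the cell, most tested genes of Dishevelled and the destruction complex did not pass, whereas 7 of 14 tested nuclear cofactors were called lower. Among all tested genes 16.6% were called lower and 14.1% higher. Of 15 tested genes of Dishevelled and the destruction complex, 3 fell, Dvl3, Csnk1d and Gsk3b, 1 rose, Amer1, which had a log2 fold change of -0.21 as deposited, and 11 did not pass. Each of these 4 calls was lost without at least 1 sample, that of Dvl3 without C3G null 1 (adjusted p = 0.0861 from limma) and that of Csnk1d without WT 2, C3G null 1 or C3G null 2 (0.0579 to 0.0613). Gsk3b lost its call without WT 1, WT 2, C3G null 1 or C3G null 2 (adjusted p = 0.0709 to 0.169 from limma), and Amer1 without any 1 of the 5 samples (0.0729 to 0.17). Ctnnb1, the gene of β-catenin, had 203, 208 and 223 TPM in WT and 111 and 139 TPM in C3G null samples, and after scaling its samples overlapped (log2 fold change -0.07, 95% interval -0.42 to 0.29, adjusted p = 0.762 from limma). Of 14 tested nuclear cofactors, 7 fell and 0 rose by limma (0 at an unadjusted p under 0.05), led by Chd8 at -0.93 and Bcl9l, the β-catenin adaptor, at -0.72, with Crebbp at -0.36. The call of Crebbp was lost without WT 1, WT 2, C3G null 1 or C3G null 2 (adjusted p = 0.078 to 0.188 from limma). Chd8, Fzd3 and Tnfrsf19, which were called lower, lie on chromosome 14, where the median log2 fold change of 441 tested genes was -0.46 and 56.7% were called lower.

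**Figure D4:**
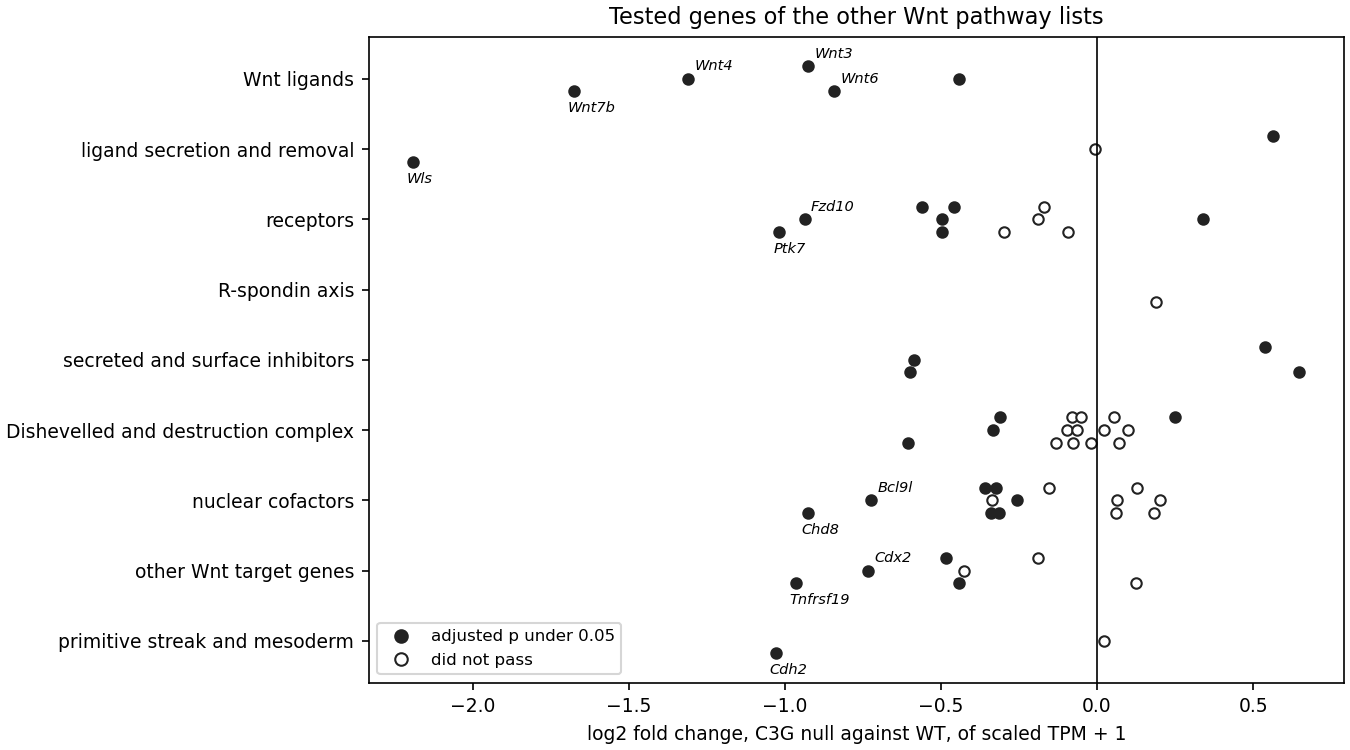
Log2 fold change of scaled TPM + 1, C3G null against WT, for each tested gene of the 8 other Wnt pathway lists and of the primitive streak list, 1 point a gene, filled where the adjusted p from limma was under 0.05. All 5 ligands lay below 0, Wls was the lowest point at -2.19, and most genes of the destruction complex lay near 0.

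Among 13 other genes often used as Wnt targets, 7 were tested, 4 fell (16.6% of all tested genes did) and 0 rose by limma (0 at an unadjusted p under 0.05). They were Tnfrsf19 at -0.97, Cdx2, a caudal homeobox gene, at -0.73, Myc at -0.48 and Twist1 at -0.44. The list is not a full set of Wnt targets, and Notum, which rose after scaling, was counted in another list. The call of Myc was lost without WT 1, WT 2 or C3G null 1 (adjusted p = 0.0669 to 0.0884 from limma). Cdx2 had 1.10, 1.01 and 0.84 TPM in WT and 0.03 and 0.11 TPM in C3G null samples, and 4 of the 7 tested genes had passed the filter only through WT. Of 15 primitive streak and mesoderm genes 2 were tested. Cdh2, the N-cadherin gene, had 4.09, 3.29 and 2.73 TPM in WT and 0.45 and 0.85 TPM in C3G null samples and fell by 1.03 on the log2 scale (adjusted p = 0.00116 from limma), passing the filter only through WT. Eomes, a T-box gene active beside Brachyury, had 2.74, 2.27 and 1.88 TPM against 1.01 and 2.01 TPM, and did not pass (log2 fold change 0.02, adjusted p = 0.904 from limma). Of 6 naive-state genes known as targets of Tcf7l1 repression, 1 rose, where 14.1% of all tested genes did. It was Nr0b1, by 0.29 (adjusted p = 0.0428 from limma). The other 5 did not pass, among them Esrrb at 0.12 and Nanog at 0.29. As deposited Nr0b1 had a log2 fold change of -0.39, and without any 1 of the 5 samples it was not called (adjusted p = 0.0688 to 0.142 from limma).

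Genes of other cell types differed between the groups too. The summed scaled level of 8 fibroblast genes was 3.76 to 4.60 in WT and 1.73 and 1.66 in C3G null samples. Of the 8 genes, 7 were lower without overlap, where 29.3% of all tested genes were. But 6 of the 8 were below the filter and not tested, so that share is not a like comparison. The leading gene Thy1 fell by 0.36 on the log2 scale. Col1a1, which passed the filter only through WT, fell by 0.96. The call of Thy1 was lost without WT 1, WT 2, C3G null 1 or C3G null 2 (adjusted p = 0.0548 to 0.107 from limma). The summed scaled level of 8 primitive endoderm genes was 15.3 to 16.5 in WT and 22.8 and 25.8 in C3G null samples. Of the 8 genes, 4 of them below the filter, 6 were higher without overlap, where 29.5% of all tested genes were. Cubn, Lama1 and Dab2 rose, by 1.31, 0.71 and 0.69. As deposited the endoderm sum was 17.5 to 22.0 TPM in WT against 14.1 and 23.3 TPM, and Cubn alone of these 3 was called (adjusted p = 0.642 for Lama1 and 0.325 for Dab2 from limma). Gata6 and Sox17, below the filter, were higher without overlap as deposited too, while Sox7 and Col4a1 were lower without overlap. The study reported Gata6 and Sox17 as repressed in null cells by quantitative PCR, and the cause of this difference was not tested. Dab2 also lost its call without WT 1 (adjusted p = 0.0598 from limma) or WT 2 (0.0664). For the 7 neural genes the scaled sum was 15.2 to 16.9 in WT and 27.8 and 25.1 in C3G null samples. As deposited it was 18.6 to 20.6 TPM against 17.2 and 22.8 TPM. Of the 7 genes, 2 were higher and 1 lower without overlap. Tubb3, at a scaled 9.30 to 12.1 in WT and 22.3 and 19.3 in C3G null samples, rose by 0.93. Neurod1, which passed the filter only through WT, fell by 0.77 on the log2 scale. Neurog2 was listed at 0 in all samples, and as deposited Tubb3 was not called (adjusted p = 0.315 from limma). The ES cell genes Fgf4 and Dppa5a rose by 0.73 and 0.71 after scaling but not as deposited, at log2 fold changes of 0.06 for Fgf4 (adjusted p = 0.825 from limma) and 0.01 for Dppa5a (0.977). Dppa5a also lost its call without WT 1, WT 2, C3G null 1 or C3G null 2 (adjusted p = 0.0608 to 0.123 from limma). The part of these cell types in the values of Brachyury, Axin2, Sp5, Tcf7l2 and Lef1 was not tested.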

How the data were processed

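RNA of 3 WT and 2 C3G null samples was sequenced as paired-end reads. STAR was the aligner and GRCm38 the genome, and the values that the authors deposited are TPM per Ensembl transcript. The submitters' processing notes name bcl2fastq 2.20, FastQC 0.11.7, STAR 2.5.1b and RSEM 1.2.31. Strand settings are not given in the sources used here, so overlapping antisense genes cannot be told apart.

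Of 142647 transcripts 141524 were matched to GENCODE M21 and summed by symbol. Scaled TPM (median of ratios, size factors from 0.619 to 1.34) were tested as log2(value + 1) with limma 3.58.1 with a mean-variance trend in R 4.3.3, two-sided, after a filter of 1 TPM in 2 samples. Shares were compared by exact permutation over 10 arrangements with scipy 1.17.1. Motifs were searched on both strands. The fit was tested on simulated data with known changes. These were large and not placed in the lowest genes, with no length trend and no shift to small RNAs. The simulation therefore cannot show how small changes or low genes fare in these data.

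The genes and lists were chosen with earlier results of these data known. Named are the members, Rapgef1, the ES cell markers and, in each list, up to 3 of the largest called rises and falls. Other genes were named for context after their values were seen (Fzd3, Ctnnb1, Porcn, Lgr4, Eomes, Esrrb, Nanog, Twist1, Wnt16, Neurog2, Gata6, Sox17, Sox7, Col4a1). Alternatives were TPM as deposited, scaling to protein-coding TPM, a pseudocount of 0.1 or 5, a filter of 5 TPM or none, a length and GC correction, a replicate block, both together, each sample left out and, added after seeing the data, limma without the trend.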

Additional observations from a re-analysis of the deposited data

How the results depend on the processing

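Brachyury, Axin2, Sp5 and Lef1 kept their direction and their call under every alternative that tested them. Their log2 fold changes ranged from -1.63 to -0.51, from -1.48 to -0.45, from -3.0 to -0.47 and from 0.83 to 1.71, and the highest adjusted p from limma among these were 0.0138, 0.00826, 0.0151 and 0.0101. Tcf7l2 lost its call with no filter (adjusted p = 0.0504 from limma) and without either C3G null sample. With a filter of 5 TPM only 4 of the 10 genes were tested, and 0 were called lower by limma (0 at an unadjusted p under 0.05).

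TPM as deposited gave 181 genes higher and 7109 lower, in place of 1760 and 2083, 8 of the 9 genes lower, and 0 and 48 of the pathway list genes. Calls to the higher side were 45.8% after scaling, 2.48% as deposited and 15.9% with protein-coding scaling, which gave 707 and 3732 genes and 3 pathway genes higher. No filter gave 3 pathway genes higher, and the filter of 5 TPM gave 1145 genes lower and 1 and 14 pathway genes. Leaving out 1 sample gave 909 to 1579 genes higher (909 without WT 2, 981 without C3G null 1, 990 without C3G null 2), 1385 to 1880 lower (1385 without WT 2), and 3 to 4 pathway genes higher (3 without WT 2, WT 3 or C3G null 2) and 16 to 27 lower (18 without WT 2, 16 without C3G null 1).

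The sign of small changes turned. Tcf7 went from 0.03 to -0.57 as deposited and -0.17 with protein-coding scaling, Axin1 from -0.051 to 0.075 with the length and GC correction and 0.11 with the replicate block and that correction, and Tcf7l1 from -0.089 to 0.065 with the length and GC correction. Without 1 sample, Tcf7 ranged from -0.14 to 0.20 (below 0 without WT 3 or C3G null 2), Axin1 from -0.17 to 0.069 (above 0 without C3G null 1) and Tcf7l1 from -0.32 to 0.15 (above 0 without WT 1 or C3G null 1). Over the named genes and alternatives, 542 values kept direction and side of the threshold, 75 lost and 3 gained the call, and 14 turned. As deposited, Fzd7 was -0.30, Amer1 -0.21 and Nr0b1 -0.39. The cause was not tested. With the replicate number as a block, 1489 genes were higher and 1816 lower, 1 and 4 of the members and 3 and 24 of the pathway genes, and Tcf7 was -0.012. With the block and the length and GC correction Rapgef1 was -0.20 (adjusted p = 0.125 from limma), no longer called. The block alone ended the calls of Gsk3b (0.0575), Amer1 (0.107), Dppa5a (0.0829), Fzd7 (0.0826) and Nr0b1 (0.0684). Only 2 numbers are shared, with correlations of deviations of -0.18 and 0.18. With 2 null samples, the deviations of C3G null 1 and 2 from their mean are mirror images, so these correlations cannot decide on pairing. The numbers were not taken as pairs.

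TPM keep no depth, so the precision of low values such as Sp5 in C3G null cells is unknown, and 2 null samples limit each interval.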
